A study of Mus musculus with 9 samples.

Results

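Translation initiation factors bring the ribosome, the initiator transfer RNA and a messenger RNA together at the start codon. Their genes were taken here as every protein-coding gene whose mouse symbol begins with Eif and a digit of 1 to 6, without the eIF2 kinases (symbols beginning Eif2ak) and without Eif2s3y. In the GENCODE M21 annotation of the mouse genome build GRCm38, 50 genes met this rule, and all 50 were listed among the 55573 gene identifiers of the count tables. RNA was sequenced from splenic CD4+ T cells of B6 mice in 9 libraries. Of these, 3 came from cells activated for 3 h at 39 °C on plates coated with antibodies to CD3 and CD28, which engage the T cell receptor complex and its co-receptor. Another 3 came from cells activated for 3 h in the same way at 37 °C. The last 3 came from naive, that is unactivated, cells. No mutation or further agent is named for any group. Per the labels, spleen cells were the material cultured, and whether the replicates of a group are different mice or different wells is not stated. The p-values therefore measure only the spread between these libraries, which may be technical. Nothing states that the naive cells spent 3 h in medium, so the stimulus and the time in culture cannot be told apart in the comparisons with naive cells.

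In the cap-dependent route, eIF4E binds the cap of the messenger RNA and the scaffold eIF4G ties it to the RNA helicase eIF4A, while eIF3, eIF1, eIF1A and eIF5 sit on the small ribosomal subunit with eIF2, which carries the initiator transfer RNA. eIF2B reloads eIF2 with GTP, and the 4E-BPs hold eIF4E away from eIF4G until the kinase mTOR phosphorylates them. Resting T cells make little protein, and protein synthesis and the translation machinery are known to increase early after T cell receptor stimulation. All values below are of RNA, not of protein or of phosphorylation.

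The libraries held 12647692 to 17605549 counts each, of which the initiation factors took 1.39 ± 0.0267% at 39 °C, 1.37 ± 0.0245% at 37 °C and 1.02 ± 0.0347% in naive cells (SD, n = 3 each). All 9 markers of CD4+ T cells had counts in every group, with a summed level of 5646 to 6145 counts per 1000000 (CPM) at 39 °C, 5356 to 5678 CPM at 37 °C and 5109 to 6877 CPM in naive cells. Against naive cells, 1 of the 9 was called higher and 4 lower at 39 °C, and 1 higher and 5 lower at 37 °C. Of all tested genes, 29.2% were higher and 29.8% lower at 39 °C, and 30.9% higher and 31.8% lower at 37 °C. The 8 B cell markers summed to 244 to 256 CPM at 39 °C, 229 to 238 CPM at 37 °C and 745 to 893 CPM in naive cells, and all 8 were lower in both activated groups. The 6 erythroid markers summed to 2.86 to 3.83 CPM at 39 °C, 2.56 to 3.29 CPM at 37 °C and 126 to 210.1 CPM in naive cells, with Slc4a1 at 0 at 39 °C. The 8 myeloid markers summed to 1.43 to 2.06 CPM at 39 °C (Cd14 at 0), 1.07 to 1.86 CPM at 37 °C (S100a9 at 0) and 9.95 to 12.7 CPM in naive cells. The 2 CD8 T cell markers summed to 12.6 to 14.6, 13.5 to 15.1 and 25.8 to 36.1 CPM in the same groups, and the 4 NK cell markers to at most 0.279, 0.286 and 4.33 CPM. The ribosomal protein genes took 9.30 ± 0.888% of the counts at 39 °C, 8.52 ± 0.552% at 37 °C and 12.5 ± 2.20% in naive cells (SD, n = 3 each). The part of these other cell types and of the ribosomal protein share in the comparisons with naive cells was not tested. In whole-cell RNA of this kind, fewer cells of a type and less RNA per cell cannot be told apart.

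Most initiation factor transcripts took a larger share of the RNA after 3 h of activation, and none passed the test between the activation temperatures. Of the 50 genes, 49 were tested, and Eif4e1b, the oocyte form of the cap binder, had 0 counts in all 9 libraries (a floor of 3 counts over all libraries, or 0.0229 CPM, for counting error only). At 39 °C against naive cells, 30 of the 49 (61.2%) were higher and 4 (8.16%) were lower in edgeR's quasi-likelihood test at an adjusted p of 0.05, against a background of 29.2% of all 13328 tested genes called higher and 29.8% called lower. At 37 °C against naive cells, 32 (65.3%) were higher and 5 (10.2%) were lower, against a background of 30.9% of all genes called higher and 31.8% called lower. At 39 °C against 37 °C, 0 were higher and 0 were lower, against 0.135% and 0.623% of all genes. The members' median log2 fold change was 0.52 at 39 °C and 0.56 at 37 °C against naive cells, where the median of all tested genes lay within 0.01 of 0. DESeq2 called 30 higher and 4 lower at 39 °C, and 31 higher and 6 lower at 37 °C, against naive cells. The comparisons with naive cells share the naive libraries, so their calls are not independent of each other. Without naive replicate 2, 8 genes were lower at 39 °C and 8 at 37 °C. With upper-quartile scaling, which moves the median of all genes by -0.13 on the log2 scale, 27 were higher and 9 lower at 39 °C, and 29 were higher and 9 lower at 37 °C. The shares of all genes called by DESeq2 or under these other settings were not counted. Whether the members or the background moved was therefore not tested.

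**Figure D1:**
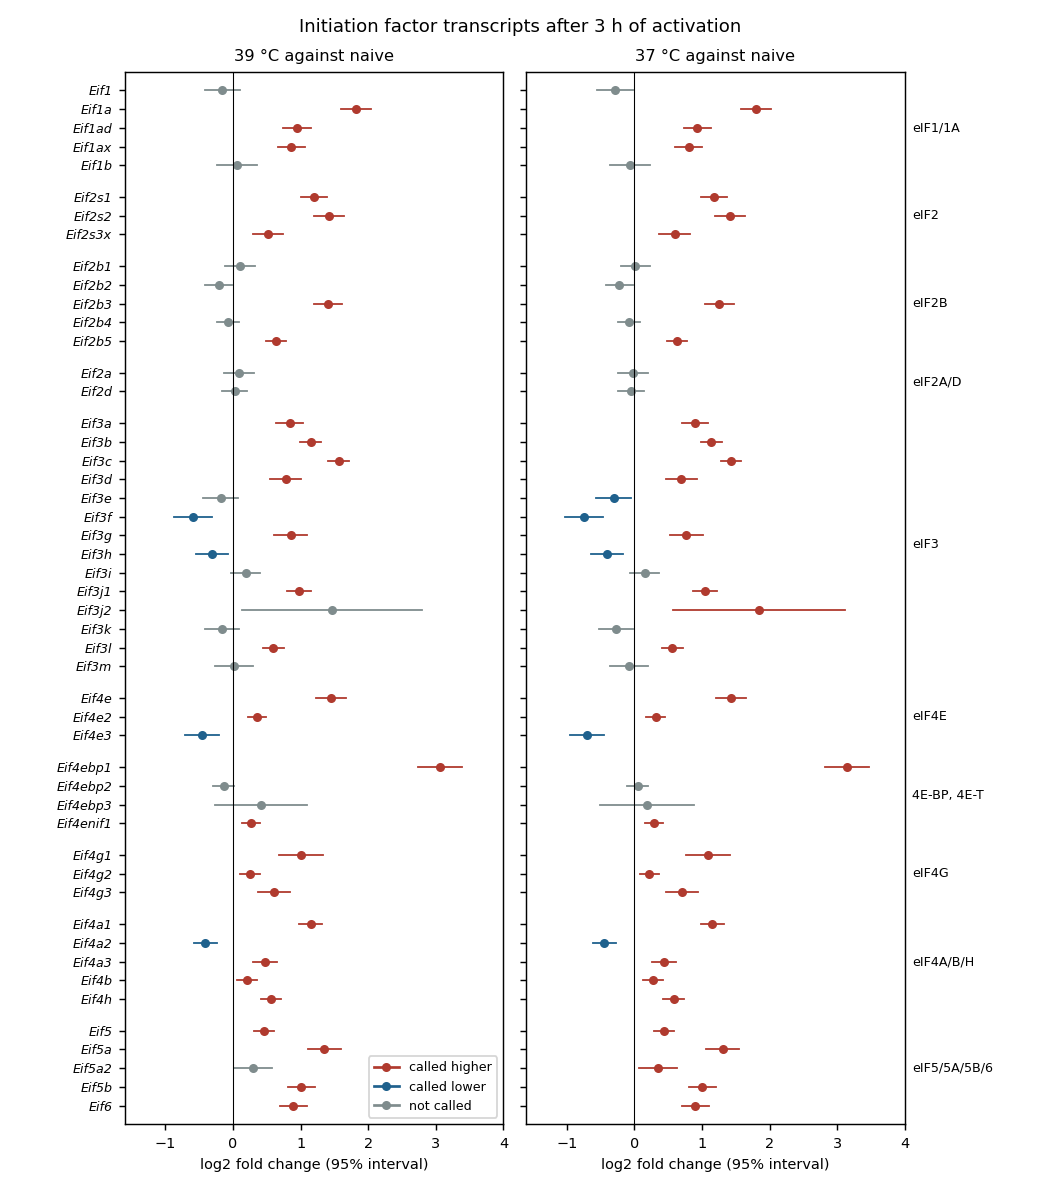
Log2 fold change of the 49 tested initiation factor transcripts at 39 °C against naive cells (left) and at 37 °C against naive cells (right), with 95% intervals of the edgeR fit, grouped by complex. Eif4ebp1 lies farthest to the right in both panels (3.06 and 3.15), and Eif3f farthest to the left (-0.59 and -0.75).

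Since MYC, a transcription factor induced early in activated T cells, is known to bind the E-box CACGTG and to act on genes of the translation machinery, the RefSeq promoter windows (250 bases before to 50 bases after a start site, build GRCm38.p6) were searched for it. The motif is its own reverse complement, so both strands were covered. It was found in 10 of the 38 member genes with a window (26.3%), against 8.09% of all 27025 genes with windows and 8.91% of the protein-coding ones. Of the 26 members with a window that were called higher at 37 °C, 26.9% held it, and of the 12 others 25.0% held it. The CHOP-ATF4 element TGATGNAA, searched on both strands, was found in the window of 1 of the 38 members, Eif2s3x (2.63%), against 4.51% of all genes, and that window held no CACGTG. These matches describe letters only. Below, the stretch around the E-box is shown for 3 members that rose with activation and for Eif3f, which fell, with the motif in capitals, followed by the stretch before the start site of Eif4a2, which fell and held neither motif. All lie outside annotated exons and read 5′ to 3′ on the gene's strand.
Eif4g1 (chr16:20672633-20672718, plus strand, motif starting 54 bases before the start site): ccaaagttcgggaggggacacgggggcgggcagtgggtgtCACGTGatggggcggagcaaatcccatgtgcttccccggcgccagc
Eif4a1 (chr11:69672567-69672652, minus strand, motif starting 189 bases before the start site): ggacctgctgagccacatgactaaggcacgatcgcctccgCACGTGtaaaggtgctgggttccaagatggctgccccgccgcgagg
Eif5a (chr11:69921415-69921500, minus strand, motif starting 74 bases before the nearest start site): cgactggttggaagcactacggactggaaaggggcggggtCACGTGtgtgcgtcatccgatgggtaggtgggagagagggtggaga
Eif3f (chr7:108934307-108934392, plus strand, motif starting 68 bases before the start site): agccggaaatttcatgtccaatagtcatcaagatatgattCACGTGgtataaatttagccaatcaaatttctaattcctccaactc
Eif4a2 (chr16:23107318-23107443, plus strand, neither motif): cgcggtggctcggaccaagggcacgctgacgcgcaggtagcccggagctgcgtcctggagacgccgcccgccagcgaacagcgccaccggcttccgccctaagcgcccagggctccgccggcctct
The other members with the motif were Eif4e, Eif4h, Eif5a2, Eif3a, Eif3k and Eif1b. In Eif4e it began 228 and 64 bases before the start site, and in Eif3a it began at base 23 of the transcript.

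The cap binder Eif4e rose and its paralog Eif4e3 fell. Eif4e had 171, 158 and 156 CPM at 39 °C, 158, 146 and 174 CPM at 37 °C and 68.5, 52.6 and 56.5 CPM in naive cells. Every activated library lay above every naive library, and the 39 °C and 37 °C libraries overlapped. The log2 fold change against naive cells was 1.45 ± 0.10 at 39 °C (SE, adjusted p = 1.54e-07) and 1.43 ± 0.10 at 37 °C (SE, adjusted p = 1.56e-07). Eif4e3, which encodes another cap binder, had 13.8, 13.3 and 14.1 CPM at 39 °C, 10.9, 10.8 and 13.1 CPM at 37 °C and 21.4, 17.8 and 17.3 CPM in naive cells. The naive libraries were all highest, and the 39 °C libraries all lay just above the 37 °C ones. Its log2 fold change against naive cells was -0.46 ± 0.11 at 39 °C (SE, adjusted p = 0.00433) and -0.70 ± 0.12 at 37 °C (SE, adjusted p = 0.000218). Eif4e3 shares 14.8% of its exon bases with another annotated gene on the same strand, Gm20696, so its counts may hold reads of both. Eif4e2, a cap binder known for repressing translation, rose less, with a log2 fold change of 0.36 at 39 °C and 0.31 at 37 °C.

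Of the repressors that sequester eIF4E, Eif4ebp1 rose most of all members, while Eif4ebp2 was not called in any comparison. Eif4ebp1 had 56.3, 52.3 and 46.9 CPM at 39 °C, 57.7, 49.8 and 57.5 CPM at 37 °C and 8.04, 4.70 and 5.86 CPM in naive cells. The lowest activated library held 46.9 CPM and the highest naive library 8.04 CPM. The fold change against naive cells was 8.36 at 39 °C and 8.86 at 37 °C, or 3.06 ± 0.15 and 3.15 ± 0.15 on the log2 scale (SE, adjusted p = 7.90e-09 and 5.55e-09). Eif4ebp2 had 359, 379 and 370.1 CPM at 39 °C, 425, 428 and 409 CPM at 37 °C and 377, 423 and 421 CPM in naive cells. The 37 °C libraries overlapped the naive ones, the 39 °C libraries lay below all 37 °C libraries, and a single naive library, replicate 1, lay among the 39 °C values. Without naive replicate 1, Eif4ebp2 passed as lower at 39 °C against naive cells (log2 fold change -0.19, adjusted p = 0.00683). In the same comparison it also passed as lower with upper-quartile scaling (-0.27, adjusted p = 0.00557). Per kilobase of exon, Eif4ebp2 stood at 63.9 ± 1.74 CPM at 39 °C, 72.7 ± 1.76 CPM at 37 °C and 70.4 ± 4.51 CPM in naive cells, above Eif4ebp1 at 23.6 ± 2.15, 25.0 ± 2.06 and 2.82 ± 0.773 CPM per kilobase (SD, n = 3 each). Eif4ebp3 had 12 to 30 counts per library at 39 °C, 13 to 21 at 37 °C and 14 to 20 in naive cells, was not called, and shares 67.3% of its exon bases with AC115631.1. Eif4enif1, which carries eIF4E into the nucleus, rose by 0.27 at 39 °C and 0.29 at 37 °C on the log2 scale, and its call at 39 °C was lost with upper-quartile scaling (0.14, adjusted p = 0.0652).

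All 3 eIF4G scaffolds rose, Eif4g1 most and Eif4g2 least. Eif4g1 had 664, 703 and 733 CPM at 39 °C, 731, 779 and 718 CPM at 37 °C and 249, 409 and 389 CPM in naive cells. All activated libraries lay above all naive ones, and naive replicate 1 lay well under the other naive libraries. The fold change against naive cells was 2.01 at 39 °C (adjusted p = 9.20e-05) and 2.13 at 37 °C (adjusted p = 4.40e-05), each with an SE of 0.15 on the log2 scale. Eif4g3, a paralog of Eif4g1, rose by 0.61 at 39 °C and 0.70 at 37 °C on the log2 scale. Eif4g2, which lacks the eIF4E-binding part and serves cap-independent initiation, rose by 0.25 and 0.22. The calls of Eif4g2 were lost with upper-quartile scaling, at 0.13 (adjusted p = 0.117) at 39 °C and 0.09 (adjusted p = 0.252) at 37 °C.

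The helicase paralogs moved in opposite directions. Eif4a1, the main eIF4A of growing cells, had 1208, 1129 and 1077 CPM at 39 °C, 1147, 1097 and 1192 CPM at 37 °C and 546, 479 and 517 CPM in naive cells. Eif4a2, which has been tied to repression by microRNAs, had 677, 665 and 693 CPM at 39 °C, 652, 655 and 681 CPM at 37 °C and 994, 856 and 852 CPM in naive cells. For both genes the activated and the naive libraries were fully apart, with Eif4a1 high and Eif4a2 low in activated cells. The log2 fold change of Eif4a1 against naive cells was 1.15 ± 0.08 at 39 °C and 1.16 ± 0.08 at 37 °C (SE, adjusted p = 1.62e-07 and 1.37e-07). That of Eif4a2 was -0.41 ± 0.08 at 39 °C and -0.44 ± 0.08 at 37 °C (SE, adjusted p = 0.000669 and 0.000345). The paralogs are similar in sequence and both host small nucleolar RNAs, so reads could be split between genes by the counting. Eif4a3, the helicase of the exon junction complex, rose by 0.48 at 39 °C and 0.44 at 37 °C on the log2 scale. Eif4h, a cofactor of eIF4A, rose by 0.56 and 0.58, and Eif4b, another cofactor, by 0.20 and 0.27. Eif4b kept its call in 13 of 18 alternative fits at 39 °C. It was lost there with upper-quartile scaling (0.08, adjusted p = 0.332), with every gene with a count kept (adjusted p = 0.0786), in the fit of only the 6 libraries compared (adjusted p = 0.051) and without 39 °C replicate 1 (adjusted p = 0.0617) or 3 (adjusted p = 0.0536). At 37 °C it was lost with upper-quartile scaling (0.14, adjusted p = 0.0851).

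**Figure D2:**
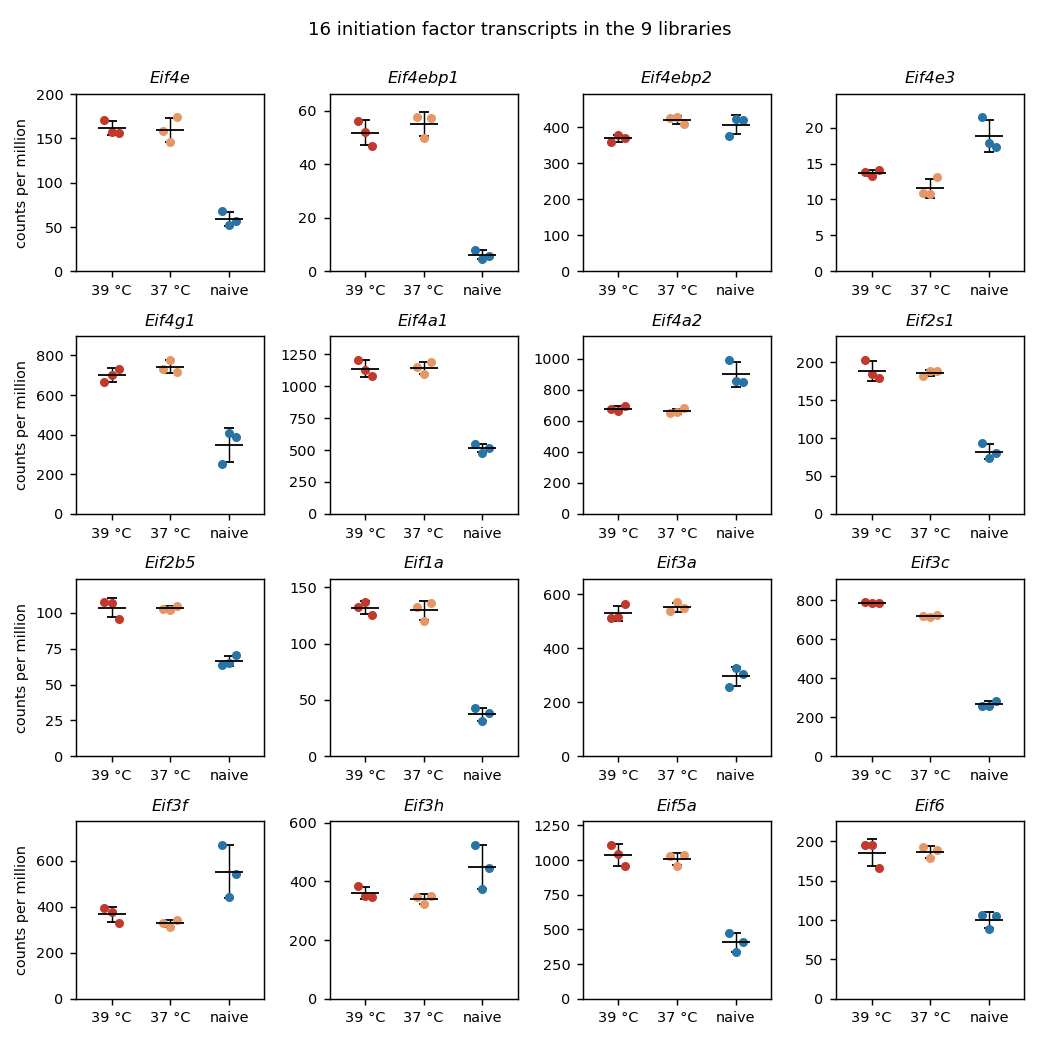
CPM in each library for 16 initiation factor transcripts at 39 °C, 37 °C and in naive cells, with the mean and SD of 3 libraries in black and axes starting at 0. In 11 panels the naive libraries lie lowest and in Eif4e3, Eif4a2 and Eif3f they lie highest, while Eif3h and Eif4ebp2 show overlap between groups.

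The 3 subunits of eIF2, which delivers the initiator transfer RNA, all rose. Eif2s1, the alpha subunit that stress kinases phosphorylate, had 203, 184 and 179 CPM at 39 °C, 181, 188 and 188 CPM at 37 °C and 92.9, 73.9 and 79.8 CPM in naive cells. Its lowest activated library held 179 CPM and its highest naive library 92.9 CPM. The log2 fold change against naive cells was 1.20 ± 0.09 at 39 °C and 1.18 ± 0.09 at 37 °C (SE, adjusted p = 2.44e-07 and 2.62e-07). Eif2s2, the beta subunit, rose by 1.42 and 1.41, and Eif2s3x, the X-linked gamma subunit, by 0.52 and 0.59. Reads of Eif2s3x cannot be told apart from those of its near-identical Y-linked copy where the sequences are shared. Together the eIF2 subunits took 0.0542 ± 0.00204% of the counts at 39 °C, 0.0540 ± 0.000566% at 37 °C and 0.0242 ± 0.00123% in naive cells (SD, n = 3 each).

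Of the 5 subunits of the exchange factor eIF2B, 2 were called higher and 0 lower at each temperature. The shares of all tested genes were 29.2% higher and 29.8% lower at 39 °C, and 30.9% higher and 31.8% lower at 37 °C. The count called higher is thus not far from those shares. The catalytic subunit Eif2b5 and its partner in the catalytic subcomplex, Eif2b3, rose. Eif2b1, Eif2b2 and Eif2b4, which form the regulatory subcomplex, were not called at either temperature. Eif2b5 had 108, 107 and 95.8 CPM at 39 °C, 102, 102 and 105 CPM at 37 °C and 63.8, 64.8 and 70.8 CPM in naive cells. Activated and naive libraries did not overlap, and the log2 fold change was 0.64 ± 0.07 at 39 °C and 0.63 ± 0.07 at 37 °C (SE, adjusted p = 8.41e-06 and 8.32e-06). Eif2b3 rose by 1.40 at 39 °C and 1.26 at 37 °C. The log2 fold changes of the regulatory subunits lay between -0.21 and 0.10 at 39 °C and between -0.22 and 0.01 at 37 °C. Eif2b2 lay near the threshold. It stayed uncalled in 14 of 18 alternative fits at 39 °C and in 11 of 18 at 37 °C (reported adjusted p = 0.0688 and 0.0516) and passed as lower in the others, among them the fit without naive replicate 2 (adjusted p = 0.00213 at 39 °C and 0.00144 at 37 °C). Eif2b4 passed as lower with upper-quartile scaling (adjusted p = 0.0308 at 39 °C and 0.0259 at 37 °C). Eif2a and Eif2d, which can bring initiator transfer RNA to the ribosome without eIF2, were called in neither comparison, with log2 fold changes of 0.09 and 0.03 at 39 °C and -0.01 and -0.05 at 37 °C.

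Among the small factors that scan for the start codon, Eif1a rose strongly and Eif1 did not. Eif1a, which encodes an eIF1A, had 133, 137 and 125 CPM at 39 °C, 133, 119.8 and 136 CPM at 37 °C and 42.5, 31.2 and 38.1 CPM in naive cells. The activated libraries held from 119.8 CPM upwards and the naive ones at most 42.5 CPM. The log2 fold change against naive cells was 1.82 ± 0.10 at 39 °C and 1.80 ± 0.10 at 37 °C (SE, adjusted p = 2.42e-08 and 2.50e-08). Its X-linked paralog Eif1ax, with which it can share reads, rose by 0.86 and 0.81, and Eif1ad, a gene with an eIF1A-like domain, by 0.95 and 0.93. Eif1ad shares 15.3% of its exon bases with Banf1 on the other strand. Eif1, which guards start codon choice, had a log2 fold change of -0.16 at 39 °C (adjusted p = 0.279) and -0.29 at 37 °C (adjusted p = 0.0537). At 37 °C Eif1 stayed uncalled in 9 of 18 alternative fits and passed as lower in the others, DESeq2 among them (adjusted p = 0.0448), with a log2 fold change of -0.42 to -0.15 over all of them. Without naive replicate 2 it passed as lower at 39 °C (-0.26, adjusted p = 0.0435), where the other fits did not call it, and at 37 °C (-0.40, adjusted p = 0.00502). Its paralog Eif1b stood at 0.06 and -0.06.

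The subunits of the scaffold complex eIF3 moved in different directions. At 39 °C 7 of its 14 genes were higher, 2 were lower and 5 were not called, and at 37 °C 8 were higher, 3 were lower and 3 were not called. Among all tested genes, 29.2% were higher and 29.8% lower at 39 °C, and 30.9% higher and 31.8% lower at 37 °C. The eIF3 genes called lower were thus a smaller share than among all genes. Eif3a, the largest subunit, had 511, 515 and 562 CPM at 39 °C, 539, 571 and 547 CPM at 37 °C and 257, 327 and 305 CPM in naive cells. Eif3c, which with Eif3a nucleates the complex, had 789.8, 784 and 786 CPM at 39 °C, 717, 714 and 725 CPM at 37 °C and 256, 257 and 285 CPM in naive cells. For both subunits every activated library was above every naive one, and for Eif3c the 39 °C libraries were also all above the 37 °C ones. The log2 fold change of Eif3a was 0.84 ± 0.09 at 39 °C and 0.90 ± 0.09 at 37 °C (SE, adjusted p = 7.22e-06 and 3.65e-06), and that of Eif3c was 1.56 ± 0.07 and 1.43 ± 0.07 (SE, adjusted p = 3.05e-09 and 6.04e-09). Eif3b, another core subunit, rose by 1.15 and 1.14, Eif3j1, a loosely held subunit at the mRNA channel, by 0.98 and 1.05, and Eif3g, an RNA-binding subunit, by 0.85 and 0.77. Eif3d, which can itself bind the cap of some messages, rose by 0.78 and 0.69, and Eif3l by 0.60 and 0.56. Eif3d shares 43.3% of its exon bases with an antisense gene, Gm17638, and Eif3j1 shares 19.0% with Spg11 on the other strand. The strand setting of the counting is not given in the sources used here.

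The eIF3 subunits called lower were Eif3f and Eif3h, and Eif3e at 37 °C alone. Eif3f, a subunit with an MPN domain, had 393, 378 and 329 CPM at 39 °C, 328, 312 and 344 CPM at 37 °C and 669.8, 442 and 544 CPM in naive cells. All naive libraries lay above all activated ones, with naive replicate 1 the highest. Its log2 fold change was -0.59 ± 0.13 at 39 °C and -0.75 ± 0.13 at 37 °C (SE, adjusted p = 0.00171 and 0.000288). Eif3h, the other MPN subunit, had 385, 351 and 348 CPM at 39 °C, 348, 322 and 351 CPM at 37 °C and 526, 375 and 447 CPM in naive cells. The naive libraries lay above all 37 °C libraries, and naive replicate 2 lay within the 39 °C range. Its log2 fold change was -0.31 ± 0.11 at 39 °C and -0.40 ± 0.11 at 37 °C (SE, adjusted p = 0.0242 and 0.00626). At 39 °C Eif3h lost its call without naive replicate 1 (-0.18, adjusted p = 0.0536), naive replicate 3 (adjusted p = 0.056), 39 °C replicate 2 (adjusted p = 0.0853) or 39 °C replicate 3 (adjusted p = 0.0848), and in the fit of only the 6 libraries compared (adjusted p = 0.0599). Eif3e, a PCI-domain subunit, was lower at 37 °C (-0.31, adjusted p = 0.0391) and not called at 39 °C (-0.18, adjusted p = 0.204). The call of Eif3e at 37 °C was lost without naive replicate 1 (-0.13, adjusted p = 0.103), 37 °C replicate 1 (adjusted p = 0.0954), 37 °C replicate 2 (adjusted p = 0.139), 39 °C replicate 2 (adjusted p = 0.0601) or 39 °C replicate 3 (adjusted p = 0.0548), and in the fit of only the 6 libraries compared (adjusted p = 0.0803). At 39 °C it passed as lower with upper-quartile scaling (-0.31, adjusted p = 0.0384) and without naive replicate 2 (-0.29, adjusted p = 0.0304). Eif3k lay near the threshold at 37 °C (-0.28, adjusted p = 0.0552), where it stayed uncalled in 11 of 18 alternative fits and passed as lower in the others. At 39 °C Eif3k stood at -0.17 (adjusted p = 0.237). There it passed as lower with upper-quartile scaling (-0.29, adjusted p = 0.0449) and without naive replicate 2 (-0.30, adjusted p = 0.00926). Eif3i (0.19 at 39 °C and 0.15 at 37 °C) and Eif3m (0.02 and -0.08) were not called. Naive replicate 1 had the highest ribosomal protein share of all libraries (14.8%), and its part in these falls was not tested. With ribosomal protein genes removed before normalisation, Eif3f, Eif3h and Eif3e kept their calls at 37 °C, and Eif3f and Eif3h at 39 °C. That fit still holds naive replicate 1, so it does not test the part of that library. Eif3j2, a near-copy of Eif3j1, had 15, 6 and 8 counts at 39 °C, 12, 9 and 15 counts at 37 °C and 8, 1 and 2 counts in naive cells, so its call as higher at 37 °C (adjusted p = 0.0158) rests on few reads that could belong to either gene. It was lost without 37 °C replicate 3 (adjusted p = 0.0606) and without naive replicate 3 (adjusted p = 0.0753).

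Grouped by whether budding yeast has a homologue, a split made after the values were seen and so given without a test, 5 of the 6 subunits with one (Eif3a, Eif3b, Eif3c, Eif3g and Eif3j1, not Eif3i) were higher at 39 °C and at 37 °C. Of the 7 without one, 2 were higher (Eif3d and Eif3l) and 2 were lower (Eif3f and Eif3h) at 39 °C, and 2 were higher and 3 were lower at 37 °C. At 39 °C the counts of the 7 were not far from the shares of all tested genes, 29.2% higher and 29.8% lower. At 37 °C those shares were 30.9% higher and 31.8% lower. Per kilobase of exon, the 13 subunits other than Eif3j2 spanned a 21.5-fold range at 39 °C, a 19.3-fold range at 37 °C and a 52.6-fold range in naive cells, with Eif3j1 lowest and Eif3h highest in each group. Eif3h stood at 224 ± 12.8 CPM per kilobase at 39 °C, 211 ± 9.85 at 37 °C and 279 ± 47.0 in naive cells, and Eif3c at 224 ± 0.903, 205 ± 1.62 and 75.8 ± 4.63 (SD, n = 3 each). Thus, per kilobase, Eif3c was level with Eif3h in activated cells and under it in naive cells. Such ranks depend on the merged length of all annotated exons, 3511 bases for Eif3c and 1612 for Eif3h, which may differ from the transcripts expressed. In mean CPM, Eif3c lay above Eif3h at 39 °C (786 against 361) and at 37 °C (718 against 340). In naive cells it lay below Eif3h (266 against 449 CPM).

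**Figure D3:**
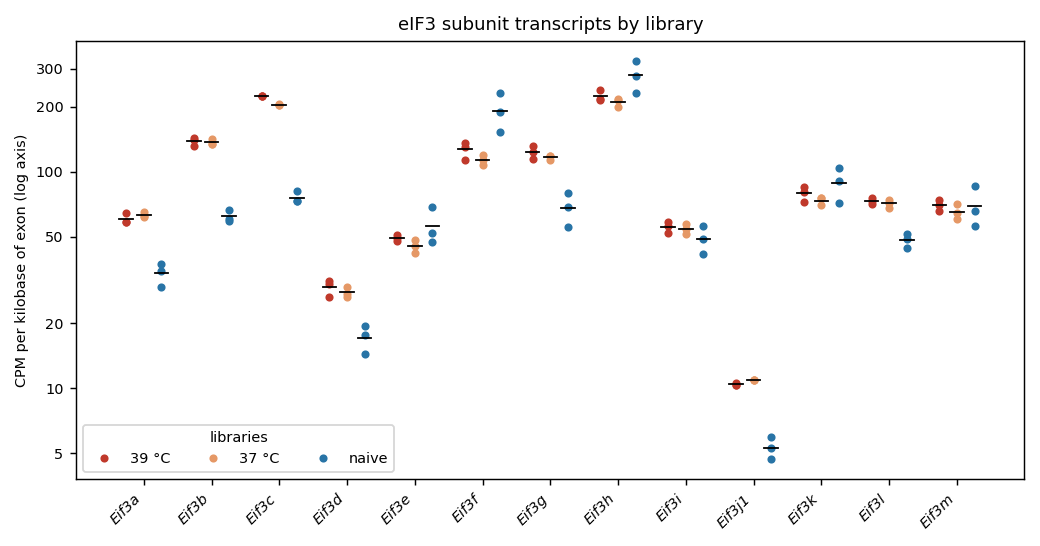
Level of 13 eIF3 subunit transcripts in CPM per kilobase of exon on a log axis, with 1 point per library at 39 °C, 37 °C and in naive cells and a bar at each mean. Eif3a, Eif3b, Eif3c, Eif3d, Eif3g, Eif3j1 and Eif3l lie higher in activated cells, and Eif3f lies lower.

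The factors of subunit joining and after rose. Eif5a, a factor modified with hypusine that helps peptide bond formation, had 1112, 1043 and 958 CPM at 39 °C, 1029, 959 and 1038 CPM at 37 °C and 472, 339 and 411 CPM in naive cells. The activated libraries overlapped each other and all lay above 472 CPM, the highest naive value. Its log2 fold change was 1.35 ± 0.11 at 39 °C and 1.31 ± 0.11 at 37 °C (SE, adjusted p = 7.61e-07 and 9.16e-07). Eif6, which keeps free large ribosomal subunits from joining and takes part in their assembly, had 195, 196 and 166 CPM at 39 °C, 193, 179 and 189 CPM at 37 °C and 107, 88.0 and 105 CPM in naive cells. Activated and naive libraries did not overlap, and the log2 fold change was 0.89 ± 0.09 at 39 °C and 0.90 ± 0.09 at 37 °C (SE, adjusted p = 4.49e-06 and 3.82e-06). Eif5b, the GTPase of subunit joining, rose by 1.01 at both temperatures on the log2 scale and shares 16.8% of its exon bases with Rev1 on the other strand. Eif5, which triggers GTP hydrolysis by eIF2, rose by 0.46 and 0.44. Eif5a2, a paralog of Eif5a with 9.08 to 14.7 CPM in the 9 libraries, was called at 37 °C (0.35, adjusted p = 0.0322) and not at 39 °C (0.30, adjusted p = 0.0627). Its call at 37 °C was lost in DESeq2 (adjusted p = 0.0731), with upper-quartile scaling (adjusted p = 0.161), without 37 °C replicate 3 (adjusted p = 0.144) and without naive replicate 3 (adjusted p = 0.122). At 39 °C Eif5a2 passed without 39 °C replicate 1 (adjusted p = 0.0495), 37 °C replicate 3 (adjusted p = 0.0499) or naive replicate 1 (adjusted p = 0.0262).

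Set per kilobase of merged exon length, on which the order between genes depends, the most abundant members differed between activated and naive cells. At 39 °C the order was led by Eif5a (437 ± 32.5 CPM per kilobase), Eif1 (315 ± 34.4) and Eif4a1 (263 ± 15.2), and at 37 °C by the same genes in the same order (424 ± 18.2, 288 ± 16.3 and 264 ± 10.9). In naive cells Eif1 (351 ± 59.9 CPM per kilobase) and Eif3h (279 ± 47.0) stood above Eif3f (191 ± 39.4), Eif5a (171 ± 28.1) and Eif4a2 (169 ± 15.1; SD, n = 3 each). In the naive order Eif1 overlapped Eif3h between libraries, and Eif3f, Eif5a and Eif4a2 overlapped each other, while every Eif3h library lay above every Eif3f library. Eif1 and Eif4a1 overlapped at 37 °C. The least abundant tested members were Eif3j2, Eif4ebp3, Eif5a2 and Eif2b3 in naive cells, all under 3 CPM per kilobase, together with Eif4ebp1 at 2.82 ± 0.773.

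Ratios between related transcripts within a library do not depend on the scaling between libraries. They were chosen after the values were seen and are given without a test. The ratio of Eif4a1 to Eif4a2 per kilobase was 2.20, 2.09 and 1.92 at 39 °C, 2.17, 2.06 and 2.16 at 37 °C and 0.676, 0.689 and 0.748 in naive cells, so that Eif4a1 exceeded Eif4a2 in every activated library and in no naive one. The ratio of Eif4e to Eif4e3 was 5.20, 4.97 and 4.65 at 39 °C, 6.11, 5.70 and 5.55 at 37 °C and 1.34, 1.24 and 1.37 in naive cells. It was highest at 37 °C and did not overlap between any pair of groups. Eif4ebp1 stood at 0.413, 0.363 and 0.334 of the level of Eif4ebp2 at 39 °C, at 0.358, 0.306 and 0.370 at 37 °C and at 0.0562, 0.0292 and 0.0367 in naive cells. Eif4e relative to the 3 4E-BP transcripts together averaged 0.301 ± 0.0150 at 39 °C, 0.267 ± 0.0247 at 37 °C and 0.133 ± 0.0260 in naive cells (SD, n = 3 each). Both Eif4e and Eif4ebp1 had risen, and the sum of repressors was still mostly Eif4ebp2. The summed level of Eif3a, Eif3b and Eif3c over that of Eif3e, Eif3f and Eif3h averaged 1.06 ± 0.0544 at 39 °C, 1.10 ± 0.0532 at 37 °C and 0.336 ± 0.0705 in naive cells (SD, n = 3 each).

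**Figure D4:**
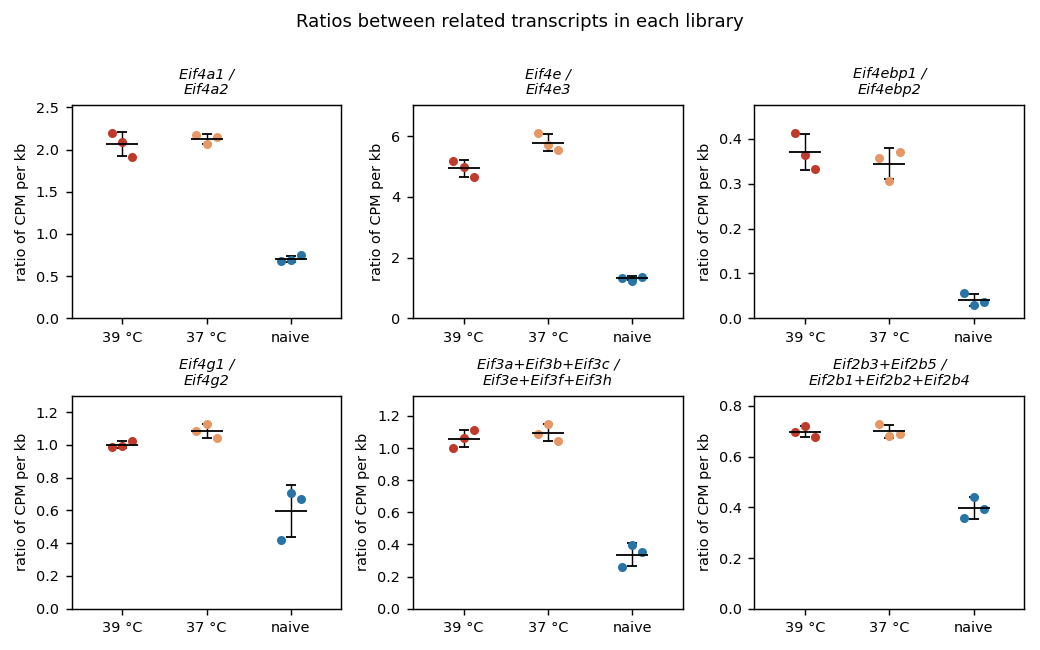
Ratios of levels per kilobase between related initiation factor transcripts in each library at 39 °C, 37 °C and in naive cells, with the mean and SD of 3 libraries in black. In all 6 panels the activated libraries lie above the naive ones, and the 39 °C and 37 °C libraries lie close together.

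Activation at 39 °C rather than 37 °C, a fever-range against a normal temperature, moved no initiation factor past the threshold. In edgeR's quasi-likelihood test 0 of the 49 were called in either direction, DESeq2 also called 0, and 1 had an unadjusted p under 0.05, beside 1061 of all 13328 genes. That gene was Eif4ebp2, with a log2 fold change of -0.19 ± 0.07 (SE, adjusted p = 0.46) and 39 °C libraries that all lay below the 37 °C ones. A fit of only the 6 activated libraries called it lower (-0.19, adjusted p = 0.0471). For 47 of the 49 genes the 95% interval of the difference lay within 1.5-fold in either direction. The exceptions, Eif3j2 and Eif4ebp3, had the fewest counts, and the interval of Eif4ebp3 still lay within 2-fold. The named members lay close to 0, with Eif4e at 0.02 (95% interval -0.19 to 0.23), Eif4ebp1 at -0.08 (-0.36 to 0.19), Eif4g1 at -0.09 (-0.40 to 0.23), Eif4a1 at -0.01 (-0.18 to 0.16) and Eif2s1 at 0.02 (-0.16 to 0.21) on the log2 scale. Eif3c had a log2 fold change of 0.13 (-0.02 to 0.28) and Eif4e3 one of 0.25 (-0.01 to 0.51), and these were the 2 genes whose 39 °C libraries all lay above the 37 °C ones. Eif3j1, Eif4b, Eif4ebp2 and Eif4g3 had 39 °C libraries that all lay below. Over all tested genes, 10.7% lay fully above and 10.3% fully below in this way. In 34 of the 49 the log2 fold change was above 0, against 51.1% of all genes, with a median of 0.02. The sign of 11 members changed without 39 °C replicate 1 and that of 9 without 37 °C replicate 2. No other setting changed the sign of more than 5.

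**Figure D5:**
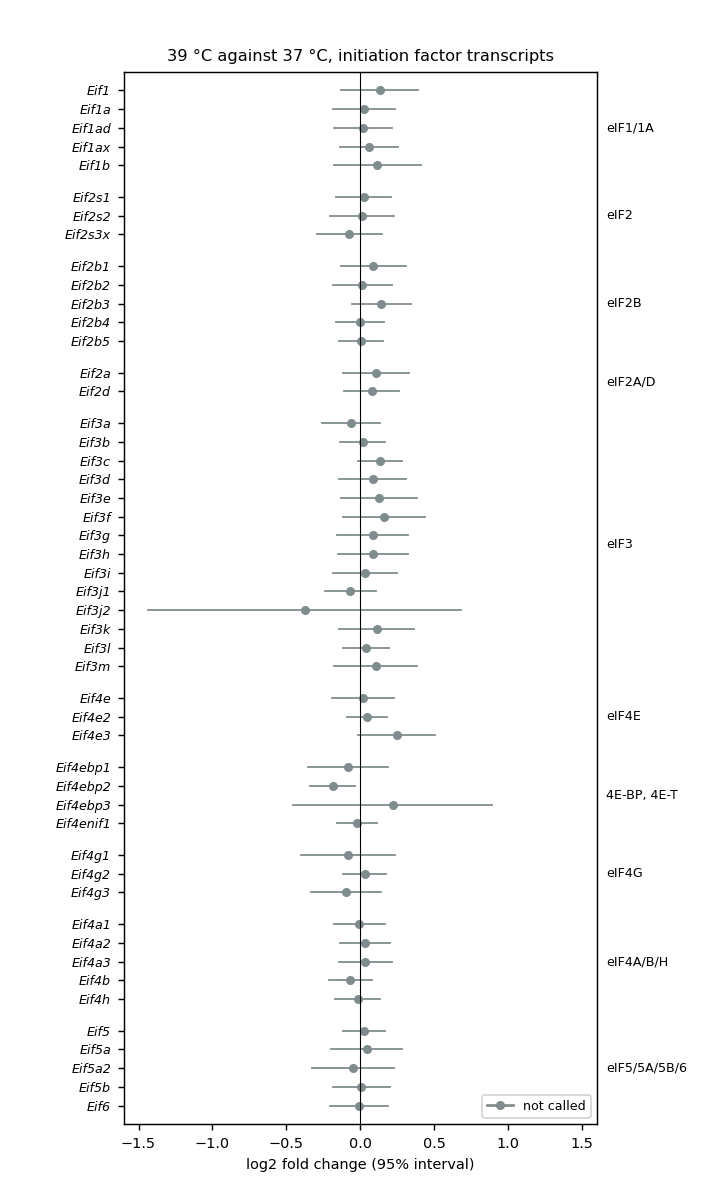
Log2 fold change of the 49 tested initiation factor transcripts at 39 °C against 37 °C, with 95% intervals of the edgeR fit, grouped by complex. No gene was called, and 47 of 49 intervals lie within 1.5-fold of no difference; Eif3j2 and Eif4ebp3 have the widest.

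The libraries of a group were not equally spread. The median coefficient of variation of the members was 5.30% at 39 °C, 4.40% at 37 °C and 12.1% in naive cells. At 39 °C 29 of the 49 members with counts were highest in replicate 1 and 31 were lowest in replicate 3, at 37 °C 32 were highest in replicate 3 and 31 were lowest in replicate 2, and in naive cells 36 were highest in replicate 1 and 32 were lowest in replicate 2. Without naive replicate 1, 36 members were higher and 4 lower at 39 °C, and 33 were higher and 4 lower at 37 °C, against naive cells. Eif1b, Eif2a, Eif3i, Eif3j2, Eif3m and Eif5a2 were the added higher calls at 39 °C. Neither these calls nor the ranks of the libraries were counted over all genes. Whether they are particular to the members was therefore not tested.

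Of 33 other genes of the pathway, all tested, 15 were higher and 8 lower at 39 °C, 15 were higher and 9 lower at 37 °C, both against naive cells, and 0 were called between the temperatures. The shares of all tested genes were 29.2% higher and 29.8% lower at 39 °C, and 30.9% higher and 31.8% lower at 37 °C. Ppp1r15a, Abce1 and Etf1, with Larp1 at 39 °C and Gspt1 at 37 °C, were the first 4 by adjusted p, and the other genes named were picked after their values were seen. Ppp1r15a, a phosphatase subunit that reverses eIF2 phosphorylation, had 123, 119 and 119.5 CPM at 39 °C, 141, 136 and 139 CPM at 37 °C and 387, 407 and 434 CPM in naive cells. It fell, with log2 fold changes of -1.76 ± 0.07 at 39 °C and -1.56 ± 0.07 at 37 °C (SE, adjusted p = 7.48e-10 and 1.83e-09). Of the 4 eIF2 kinases, Eif2ak2 and Eif2ak3 fell (-1.22 and -0.99 at 39 °C, -1.17 and -0.83 at 37 °C), Eif2ak4 rose (0.28 and 0.41) and Eif2ak1 was not called, while the constitutive phosphatase subunit Ppp1r15b rose (0.38 and 0.37). Abce1, which recycles ribosomes, rose by 1.22 ± 0.06 at 39 °C and 1.18 ± 0.06 at 37 °C (SE, adjusted p = 1.36e-08 and 1.61e-08). Of the 7 start site and recycling factors, 5 were higher at 39 °C and 4 at 37 °C, and none was lower; Denr, a reinitiation factor, was the gene called at 39 °C (0.49, adjusted p = 0.00319) and not at 37 °C (0.17, adjusted p = 0.225), with no call between the temperatures. Of the 8 elongation and release factors, 2 were higher and 2 lower at 39 °C, and 2 higher and 3 lower at 37 °C. These counts were not far from the shares of all tested genes. The termination factor Etf1 rose by 1.25 at 39 °C and 1.26 at 37 °C, and its partner Gspt1 by 0.95 and 1.11. Eef2k (-1.45 and -1.55) and Eef2 (-0.27 and -0.31) fell, as did Eef1a1 at 37 °C (-0.32). Among 10 eIF4F regulators, 4 were higher and 3 lower at 39 °C, and 5 were higher and 3 lower at 37 °C, not far from the shares of all tested genes. Larp1, which binds mRNAs of the translation machinery, rose by 1.17 and 1.25, and Pdcd4, an inhibitor of eIF4A, fell by 1.18 at 39 °C and by 1.22 at 37 °C. Both enzymes that make hypusine on eIF5A rose, Dhps by 0.43 and 0.35 and Dohh by 0.53 and 0.61.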

How the data were processed

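The deposited values are raw counts of reads per gene, 1 table per library with an identifier in column 1 and the count in column 2, which the authors had not normalised. FastQC, HISAT2, HTSeq, DESeq2 and GRCm38 appear in the submitters' processing notes without versions; which of these tools made the tables, and with which annotation release or strand setting, is not given in the sources used here. Per the labels' protocols, TRIzol total RNA went into a TruSeq kit. GENCODE M21 gave symbols, exon lengths and overlaps for 55480 of 55573 identifiers.

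After filterByExpr (minimum count 10, minimum total 15) 13328 genes remained. One model of all 9 libraries was fitted to TMM-scaled counts in edgeR 4.0.16 under R 4.3.3, with two-sided quasi-likelihood F tests, Benjamini-Hochberg adjustment over every gene tested and a threshold of 0.05. Fold changes are the first group named over the second, and their standard errors follow from the F statistic. CPM are counts per 1000000 of the TMM-scaled library size, and levels per kilobase divide them by the merged exon length. The floor given for 0 counts covers counting error only, because reads here carry no molecular identifiers. The fit was tested on simulated data.

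Values per library are given for the 4 called members that rose most and the 4 that fell most in each comparison, where the mean over all libraries reached 5 CPM, as well as for 10 members by name. Members, lists and rules were chosen with earlier results of these data known. Alternatives were RLE, upper-quartile and library-size scaling, other filters, a threshold of 0.01, DESeq2 1.42.0, a replicate block, fits of the 6 libraries compared, removal of ribosomal protein genes and leaving out each library. Replicates differed beyond sampling noise in every pair (chi-square per gene 2.14 to 43.6), so none was counted as a duplicate.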

Additional observations from a re-analysis of the deposited data

How the results depend on the processing

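No member that was called changed sign under any of the 19 alternative settings, and the counts of members called higher against naive cells ranged from 27 to 36 at 39 °C and from 29 to 33 at 37 °C. The counts called lower are less stable. The shares of all genes called were not counted under these settings, so whether the changes are particular to the members was not tested. At 37 °C against naive cells, where the reported count is 5, 9 were lower with upper-quartile factors, 8 with library size only, 8 with every gene with a count kept, 8 with a minimum count of 50 and 8 without ribosomal protein genes. At 39 °C against naive cells, where the reported count is 4, 9 were lower with upper-quartile factors. That scaling shifts the median of all genes by -0.13 (log2) in both comparisons, and the cause of the other differences was not tested. Leaving out 1 library at a time gave 4 to 8 lower at 37 °C and 3 to 8 lower at 39 °C against naive cells, and 0 to 0 in either direction between the temperatures. The fit of only the 6 activated libraries called 1 member lower at 39 °C against 37 °C, Eif4ebp2. Whether the replicate numbers pair the libraries could not be settled with 3 libraries per group. The same-number correlations of deviations ran from -0.21 to 0.39, and 4 of 9 libraries correlated best with their own number. With the replicate number as a block, 31 members were higher and 4 lower at 39 °C, 32 were higher and 7 lower at 37 °C (Eif1 and Eif3k added), and 0 were called between the temperatures. Eif3j2 and Eif4ebp3, with 1 to 30 counts per library, have the widest intervals, and depth limits what can be said of them.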
